A study of Mus musculus with 6 samples.

Results

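The genes described are 10 chemokines that mouse macrophages are known to make: Ccl2, Ccl3, Ccl4, Ccl6, Ccl7, Ccl9, Ccl24, Cxcl2, Cxcl16 and Pf4. They were taken as the rows of the deposited expression table whose gene name is 1 of these symbols, and all 10 were found among its 34745 genes. Ccl6, Ccl9, Ccl24, Cxcl16 and Pf4 were grouped as constitutive chemokines, which macrophages make without a stimulus. Ccl2, Ccl3, Ccl4, Ccl7 and Cxcl2 were grouped as inducible chemokines, which inflammatory stimuli switch on. This division rests on general knowledge of the genes, since the labels name no inflammatory stimulus and no group here tests one. The sources do not say whether collecting the cells involved such a stimulus. The level of Ccl24, a mean of 0.37 FPKM over all libraries, does not bear out its place among the constitutive genes. Nor do levels set Ccl3 apart from them, at a mean of 23.2 FPKM beside 20.6 FPKM for Ccl9, while the other inducible genes were lower.

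RNA was sequenced from peritoneal macrophages, the phagocytes of the abdominal cavity, of C57BL/6 mice. A first group of 3 libraries came from cells given R-2-HG (R-2-hydroxyglutarate, a metabolite that mutant isocitrate dehydrogenases make in large amounts) at 0.1 mM for 24 h. The other 3 came from cells given vehicle for 24 h, and each group has libraries numbered 1, 2 and 3. The sources used here do not give how the macrophages were collected and purified, or the sex and age of the mice. Nor do the labels say whether libraries of a group stem from different mice or cultures, and p-values therefore reflect just the scatter among these 6 samples, possibly a technical one.

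Chemokines are small proteins that bind receptors spanning the membrane of leukocytes and draw these cells along a gradient. The CC and CXC families differ in the spacing of conserved cysteines. Genes of the inducible kind are switched on quickly by NF-κB and AP-1 factors downstream of Toll-like receptors, and their messengers are short-lived, whereas constitutive chemokines help to keep resident leukocytes in a tissue.

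Levels are FPKM, in which fragments are divided by transcript length and by the mapped fragments of the library, and each library rests on an estimated 13680000 to 16620000 fragments. The 7 general macrophage markers, which include Lyz2 and Cd68, summed to between 18861 and 25667 FPKM per library. Lyz2 carried this sum, at 16924 to 23901 FPKM. The 6 markers of large resident peritoneal macrophages summed to between 6.82 and 13.5 FPKM. The libraries numbered 3 stood apart from the rest in the number of genes above 0, with 12817 in R-2-HG library 3 and 13872 in vehicle library 3, against 14604 to 15270 in the other 4 libraries. Values are from bulk samples, in which fewer cells of a type and less RNA per cell cannot be told apart.

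7 of the 10 genes lie on chromosome 11 and 3 on chromosome 5 (GRCm38, GENCODE release M21). Ccl2 (ENSMUSG00000035385, chr11:82035571-82037453, plus strand) and Ccl7 (ENSMUSG00000035373, chr11:82045712-82047525, plus strand) are separated by 8.26 kb. Ccl9 (ENSMUSG00000019122, chr11:83572919-83578636, minus strand) and Ccl6 (ENSMUSG00000018927, chr11:83587882-83593087, minus strand) are 9.25 kb apart. Ccl3 (ENSMUSG00000000982, chr11:83647844-83649355, minus strand) and Ccl4 (ENSMUSG00000018930, chr11:83662584-83664683, plus strand) point away from each other across 13.2 kb. Cxcl16 (ENSMUSG00000018920, chr11:70453983-70459984, minus strand) stands alone on that chromosome. Pf4 (ENSMUSG00000029373, chr5:90772435-90773383, plus strand) and Cxcl2 (ENSMUSG00000058427, chr5:90903871-90905938, plus strand) share a cluster of CXC genes at a distance of 130.5 kb, and Ccl24 (ENSMUSG00000004814, chr5:135569937-135573049, minus strand) lies elsewhere on chromosome 5. Both genes of the Ccl2 and Ccl7 pair and of the Ccl3 and Ccl4 pair are inducible, and both of the Ccl6 and Ccl9 pair are constitutive.

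Promoter sequence was at hand for 5 of the 10 genes (RefSeq, GRCm38.p6), and it is shown because the classes are commonly told apart by the NF-κB sites of the inducible genes. Each run gives the 250 bases upstream of the transcription start, 5′ to 3′ on the strand of the gene, and for Cxcl2 the 222 bases that lie upstream of its first annotated exon. Capitals mark matches, on either strand, to the NF-κB consensus (κB), to TATAAA, to TGANTCA (an AP-1 site) and to GGAAGT (a core bound by Ets factors such as PU.1). The constitutive genes Ccl6 (chr11:83593088-83593337, minus strand), Ccl9 (chr11:83578637-83578886, minus strand) and Pf4 (chr5:90772185-90772434, plus strand) come first, followed by the inducible genes Ccl3 (chr11:83649379-83649628, minus strand) and Cxcl2 (chr5:90903649-90903870, plus strand).
Ccl6: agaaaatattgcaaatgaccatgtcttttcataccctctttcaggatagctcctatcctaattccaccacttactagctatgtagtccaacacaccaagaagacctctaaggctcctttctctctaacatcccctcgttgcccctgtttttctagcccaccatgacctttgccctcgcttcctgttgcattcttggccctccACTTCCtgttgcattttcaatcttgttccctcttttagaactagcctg
Ccl9: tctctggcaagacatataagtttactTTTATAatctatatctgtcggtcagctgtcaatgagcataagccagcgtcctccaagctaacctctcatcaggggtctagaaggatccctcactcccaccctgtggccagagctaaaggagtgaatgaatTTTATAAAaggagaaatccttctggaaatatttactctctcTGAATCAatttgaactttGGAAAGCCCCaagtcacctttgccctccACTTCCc
Pf4: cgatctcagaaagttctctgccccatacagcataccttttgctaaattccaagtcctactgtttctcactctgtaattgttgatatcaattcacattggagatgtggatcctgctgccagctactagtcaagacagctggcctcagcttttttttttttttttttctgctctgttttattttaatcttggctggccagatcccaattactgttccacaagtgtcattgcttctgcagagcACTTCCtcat
Ccl3: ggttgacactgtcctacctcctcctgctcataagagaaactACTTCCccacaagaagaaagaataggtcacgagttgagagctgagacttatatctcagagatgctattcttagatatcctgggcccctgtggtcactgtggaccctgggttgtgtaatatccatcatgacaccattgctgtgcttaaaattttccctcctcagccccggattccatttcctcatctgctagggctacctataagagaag
Cxcl2: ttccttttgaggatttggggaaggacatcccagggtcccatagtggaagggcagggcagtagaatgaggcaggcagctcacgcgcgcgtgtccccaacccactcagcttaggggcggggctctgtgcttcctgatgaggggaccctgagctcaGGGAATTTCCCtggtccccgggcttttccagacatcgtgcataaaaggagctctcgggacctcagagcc
The Cxcl2 window holds 2 overlapping κB matches, 97 and 96 bases upstream of the RefSeq start, which match the consensus on opposite strands. The Ccl9 window, of a constitutive gene, has 1 κB match, 35 bases upstream, beside a TGANTCA match 53 bases upstream, 3 matches to TATAAA of which 2 overlap, and 1 to GGAAGT. Ccl6, Pf4 and Ccl3 each have 1 match, to GGAAGT, at 48, 10 and 209 bases upstream. Of 32851 promoter windows of the mouse genome, 3.9% hold a κB match, 12.4% TATAAA, 6.75% TGANTCA and 19.7% GGAAGT. The letters are a description of these windows and say nothing on which factors bind there.

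R-2-HG left no chemokine past the threshold. 9 of the 10 genes averaged 1 FPKM or more and were tested. Of these 0 were called, against 0% of the 9701 tested genes (limma on log2(FPKM + 1), adjusted p under 0.05), and 0 of the 9 had an unadjusted p under 0.05, against 140 of 9701. The adjusted p was 0.999981 for each of the 9. The count of called members was also 0 without both libraries numbered 3 and without both numbered 1. Without both numbered 3 the smallest unadjusted p of a member was 0.034 (Ccl9, limma), with 125 of 9701 genes under 0.05. Without both numbered 1 it was 0.030 (Cxcl2, limma), with 171 of 9701 genes under 0.05. Estimated changes ran from -0.27 for Ccl9 to 0.30 for Cxcl2 in log2(FPKM + 1), a scale that compresses differences of weakly expressed genes, with 4 genes higher and 5 lower and a median of -0.0040, beside -0.0044 over all genes. The median was -0.05 over the 4 tested constitutive genes and 0.10 over the 5 inducible ones. The groups overlapped for every member tested: 0 were higher without overlap, against 2.03% of all tested genes, and 0 were lower without overlap, against 2.66%. A change of 1 log2 unit in either direction lay outside the 95% interval for 5 of the 9 genes, against 94.6% of all tested genes. Blocking on the replicate number gives the same changes and narrower intervals, so that a change of 1 log2 unit lay outside them for 9 of the 9, against 97.1% of all tested genes. Ccl6 then had an interval from -0.34 to 0.15, Ccl2 from -0.38 to 0.58 and Cxcl2 from -0.18 to 0.78, and 0 members were called. For weakly expressed genes such as Ccl2, Ccl7 and Cxcl2, a rise of 1 unit in log2(FPKM + 1) is more than a doubling of FPKM.

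**Figure D1:**
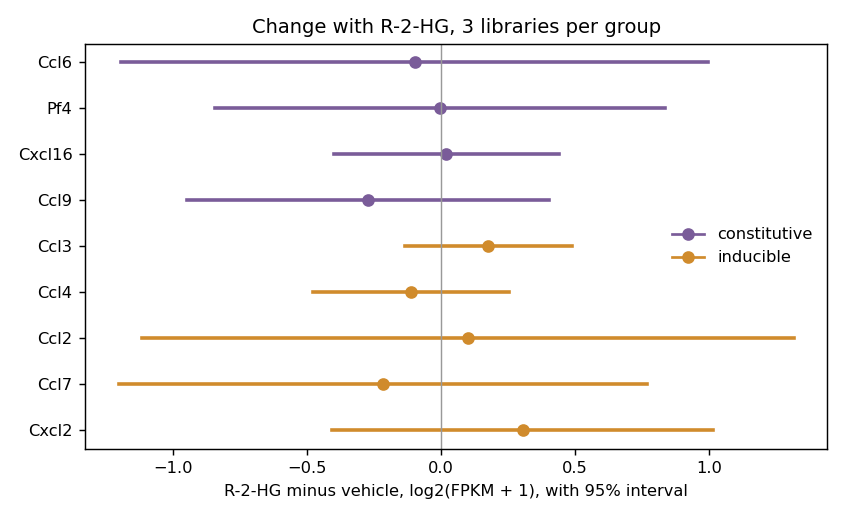
Estimated change of 9 chemokines, R-2-HG minus vehicle on the log2(FPKM + 1) scale, with its 95% interval (limma without the replicate block, 3 libraries per group; purple, constitutive; orange, inducible). Every interval crosses 0, and Ccl2 has the widest of them, from -1.11 to 1.31.

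Ccl6, a CC chemokine of rodents that binds Ccr1, was the most abundant of the 10. It stood at 148, 103 and 63.0 FPKM in R-2-HG libraries 1 to 3, against 180, 117 and 55.9 FPKM in vehicle libraries 1 to 3. In both groups the library numbered 1 was highest and the one numbered 3 lowest, and the spread within a group exceeded the distance between groups. Ccl6 averaged 105 ± 42.3 FPKM with R-2-HG and 118 ± 61.9 FPKM with vehicle (SD, n = 3 each), a change of -0.10 ± 0.46 (moderated SE). The sign of the change turned without R-2-HG library 3 or without vehicle library 1, fits that break up a number. It held without both libraries numbered 1 (-0.0059) and without both numbered 3 (-0.23).

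Pf4 (platelet factor 4, also called Cxcl4), a heparin-binding CXC chemokine of platelet granules that macrophages make too, was next. Its level was 63.3, 37.6 and 29.9 FPKM in R-2-HG libraries 1 to 3, against 64.6, 42.0 and 26.4 FPKM in vehicle libraries 1 to 3. Libraries of the same number were within a few FPKM of each other, and numbers differed far more than groups. The means were 43.6 ± 17.5 FPKM with R-2-HG and 44.3 ± 19.2 FPKM with vehicle (SD, n = 3 each), a change of -0.0040 ± 0.36 (moderated SE).

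Cxcl16, made as a membrane protein that also takes up oxidised lipoprotein and is shed to attract cells bearing Cxcr6, had 42.9, 33.9 and 30.4 FPKM in R-2-HG libraries 1 to 3, against 43.0, 34.6 and 28.4 FPKM in vehicle libraries 1 to 3. Of the 4 tested constitutive members it varied least across libraries. The means were 35.7 ± 6.48 FPKM with R-2-HG and 35.4 ± 7.33 FPKM with vehicle (SD, n = 3 each), a change of 0.02 ± 0.18 (moderated SE). Its exons overlap those of Zmynd15 on the opposite strand over 552 bp, and 16.9% of its 50-base words are shared with that gene. Zmynd15 itself was at 1.55, 2.84 and 1.62 FPKM with R-2-HG and 1.58, 1.75 and 1.66 FPKM with vehicle, and since the sources do not state whether strand was used, reads of the overlap cannot be told apart.

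Ccl9, another Ccr1 ligand of rodents and the neighbour of Ccl6, had 21.6, 18.6 and 14.3 FPKM in R-2-HG libraries 1 to 3, against 31.0, 24.8 and 13.5 FPKM in vehicle libraries 1 to 3. With R-2-HG it was at 0.696 and 0.750 times its vehicle level in numbers 1 and 2 but at 1.06 times in number 3. The means were 18.2 ± 3.63 FPKM with R-2-HG and 23.1 ± 8.87 FPKM with vehicle (SD, n = 3 each), a change of -0.27 ± 0.29 (moderated SE). Leaving out vehicle library 3 moved the change to -0.60, and leaving out vehicle library 1 to -0.03. No fit of these called it.

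Ccl24 (eotaxin-2), which attracts eosinophils through Ccr3 and marks macrophages activated by interleukin 4, was close to absent. With R-2-HG it stood at 0.655 FPKM in library 1 and 0.598 FPKM in library 2 and was listed at 0 in library 3, against 0.279, 0.609 and 0.0758 FPKM in vehicle libraries 1 to 3. Those values stand for an estimated 13.9, 10.6 and 0 fragments with R-2-HG and 5.71, 12.2 and 1.63 with vehicle, too few to show a difference at this depth. It did not reach the mean of 1 FPKM and was not tested.

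Ccl3, a ligand of Ccr1, made up most of the inducible class and was the single member higher with R-2-HG in all 3 numbers. It had 20.8, 24.7 and 28.7 FPKM in R-2-HG libraries 1 to 3, against 20.2, 21.6 and 23.1 FPKM in vehicle libraries 1 to 3. The ratio within a number was 1.03, 1.15 and 1.24, and R-2-HG library 1 lay inside the vehicle range. Ccl3 has a single annotated transcript, and its values stand for 261, 259 and 322 fragments with R-2-HG and 245, 256 and 294 with vehicle. It averaged 24.8 ± 3.93 FPKM with R-2-HG and 21.6 ± 1.43 FPKM with vehicle (SD, n = 3 each), a change of 0.18 ± 0.13 (moderated SE) with a 95% interval from -0.13 to 0.49. It was 0.29 without R-2-HG library 1 and 0.07 without R-2-HG library 3.

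Ccl4, a CC chemokine encoded beside Ccl3, was less abundant than Ccl3 in every library. It had 4.63, 4.98 and 6.00 FPKM in R-2-HG libraries 1 to 3, against 6.04, 4.59 and 6.57 FPKM in vehicle libraries 1 to 3, which rest on 50, 45 and 58 fragments with R-2-HG and 63, 47 and 72 with vehicle. The groups overlapped and no number stood out. The means were 5.21 ± 0.709 FPKM with R-2-HG and 5.73 ± 1.02 FPKM with vehicle (SD, n = 3 each), a change of -0.11 ± 0.16 (moderated SE). Leaving out a single library gave between -0.24 (without vehicle library 2) and -0.02 (without vehicle library 3).

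Ccl2, the Ccr2 ligand that draws monocytes out of marrow and blood, was low and uneven. It had 3.81, 1.49 and 1.07 FPKM in R-2-HG libraries 1 to 3, against 4.51, 1.72 and 0.347 FPKM in vehicle libraries 1 to 3. Number 1 exceeded number 3 by 3.55 times with R-2-HG and by 13.0 times with vehicle. The means were 2.13 ± 1.48 FPKM with R-2-HG and 2.19 ± 2.12 FPKM with vehicle (SD, n = 3 each), a change of 0.10 ± 0.52 (moderated SE).

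Ccl7, a further Ccr2 ligand 8.26 kb from Ccl2, had 2.06, 1.83 and 0.767 FPKM in R-2-HG libraries 1 to 3, against 4.58, 1.45 and 0.751 FPKM in vehicle libraries 1 to 3. Vehicle library 1 was well above the other 5. It rests on 58 fragments there, with an exact Poisson 95% interval of 44.0 to 75.0 that covers counting error only, against 27 (17.8 to 39.3) in R-2-HG library 1. The change was -0.22 ± 0.42 (moderated SE) between means of 1.55 ± 0.690 FPKM with R-2-HG and 2.26 ± 2.04 FPKM with vehicle (SD, n = 3 each), and leaving out vehicle library 1 turned it to 0.26.

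Cxcl2, which attracts neutrophils through Cxcr2, had 0.475, 2.04 and 2.28 FPKM in R-2-HG libraries 1 to 3, against 0.700, 1.08 and 1.21 FPKM in vehicle libraries 1 to 3. R-2-HG libraries 2 and 3 were above every vehicle library, and R-2-HG library 1 was below every one. The means were 1.60 ± 0.980 FPKM with R-2-HG and 0.997 ± 0.266 FPKM with vehicle (SD, n = 3 each), a change of 0.30 ± 0.31 (moderated SE). The change was 0.67 without R-2-HG library 1, 0.15 without R-2-HG library 2 and 0.09 without R-2-HG library 3, and none of these was called. Cxcl2 shares 5.84% of its 50-base words with its paralog Cxcl3, so part of its reads could be split between them.

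**Figure D2:**
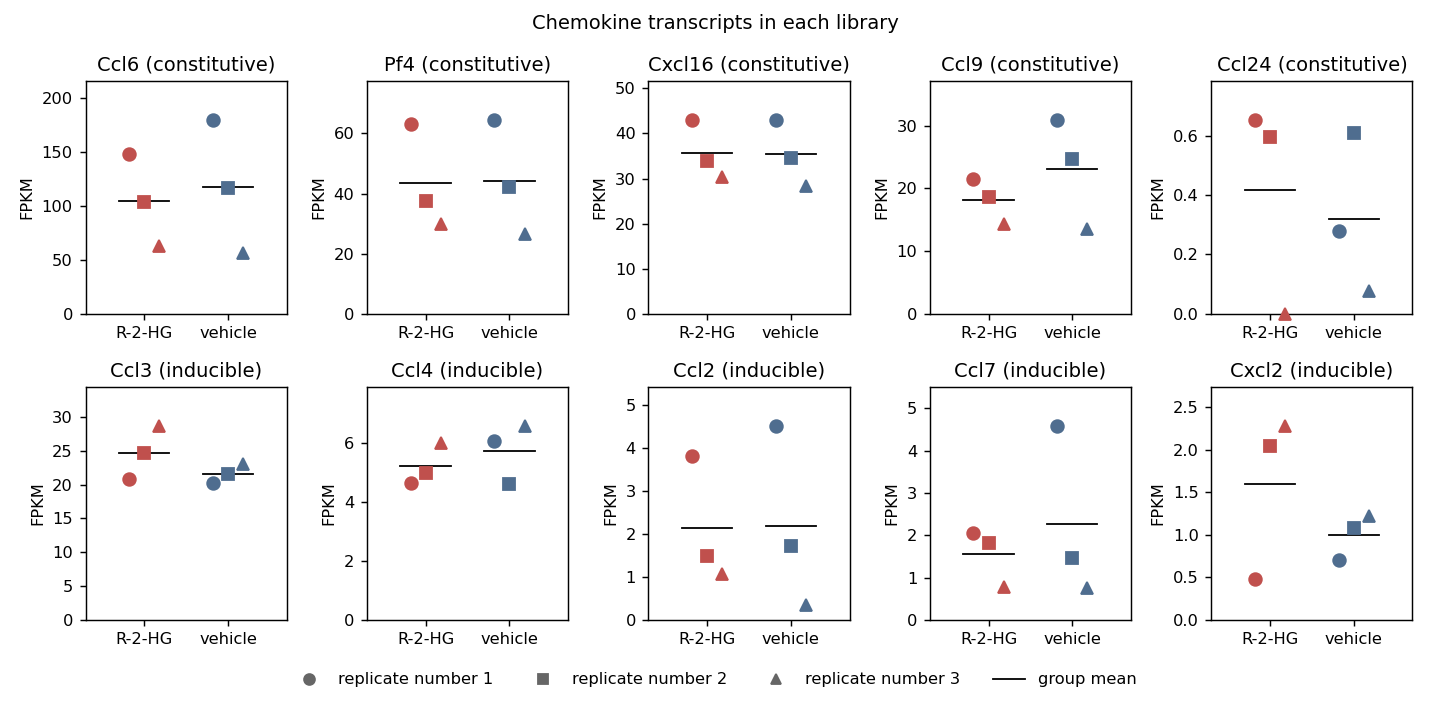
FPKM of each of the 10 chemokines in every library, with R-2-HG in red on the left and vehicle in blue on the right; the shape gives the replicate number and the line the group mean. Circles (number 1) are the highest and triangles (number 3) the lowest points of Ccl6, Pf4, Cxcl16, Ccl9, Ccl2 and Ccl7 in both groups, while Ccl3 and Cxcl2 show the opposite.

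Averaged over all libraries, the order of the levels per length was Ccl6, Pf4, Cxcl16, Ccl3, Ccl9, Ccl4, Ccl2, Ccl7, Cxcl2 and Ccl24. Ccl6 exceeded Pf4, Cxcl16 exceeded Ccl3, Ccl9 exceeded Ccl4 and Ccl4 exceeded Ccl2 in 6 of 6 libraries. Other neighbours changed places in at least 1 library: Pf4 was above Cxcl16 in 4 of 6 libraries, Ccl3 above Ccl9 in 3, Ccl2 above Ccl7 in 3, Ccl7 above Cxcl2 in 3 and Cxcl2 above Ccl24 in 5. Ccl6 lay at percentile 97.1 of mean FPKM among tested genes and Ccl3 at percentile 83.8, while Ccl2 lay at percentile 17.4 and Cxcl2 at percentile 5.21.

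Constitutive chemokines outweighed inducible ones in every library. Inducible genes summed to 31.8, 35.1 and 38.8 FPKM in R-2-HG libraries 1 to 3 and to 36.1, 30.4 and 32.0 FPKM in vehicle libraries 1 to 3. Constitutive genes summed to 276, 194 and 138 FPKM with R-2-HG and to 319, 219 and 124 FPKM with vehicle. The inducible sum stayed between 30.4 and 38.8 FPKM while the constitutive sum lay between 124 and 319 FPKM. Inducible genes made up 10.3%, 15.3% and 22.0% of the summed chemokine FPKM in R-2-HG libraries 1 to 3, and 10.2%, 12.2% and 20.5% in vehicle libraries 1 to 3. The share was larger with R-2-HG in every number, and differed more between numbers than between groups. The log2 ratio of inducible to constitutive sums averaged -2.47 ± 0.645 with R-2-HG and -2.65 ± 0.616 with vehicle (SD, n = 3 each), and the difference of 0.18 is smaller than either SD. Within numbers 1, 2 and 3 it was 0.03, 0.38 and 0.13. It was 0.26 without both libraries numbered 1 and 0.20 without both numbered 3, and single libraries left out, which breaks up a number, gave between -0.14 (without R-2-HG library 3) and 0.53 (without vehicle library 3). Within the classes, Ccl3 gave between 56.1% and 73.9% of the inducible sum and Ccl6 between 45.0% and 56.4% of the constitutive sum, so each sum is weighted towards 1 gene.

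**Figure D3:**
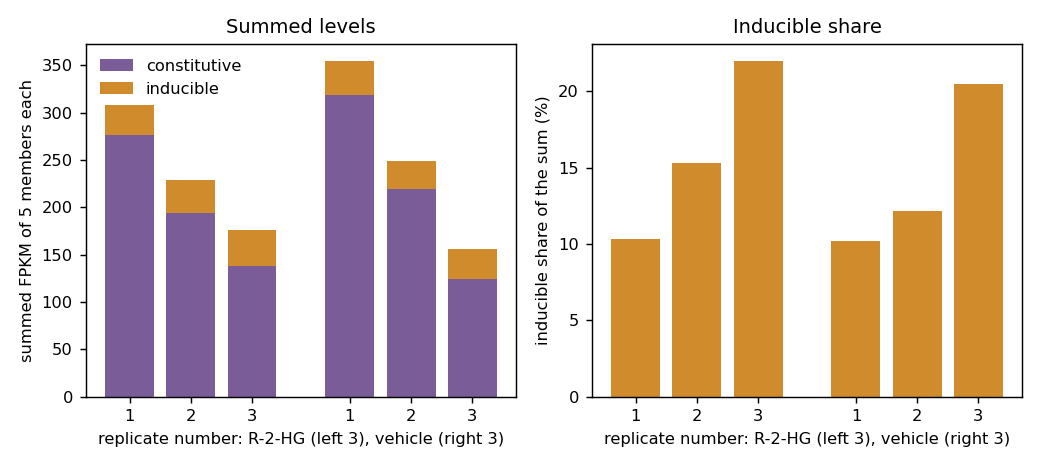
Summed FPKM of the 5 constitutive and 5 inducible chemokines (left) and the inducible share of the sum in percent (right) for R-2-HG libraries 1 to 3 and vehicle libraries 1 to 3. The inducible share is 10.3% and 10.2% in the libraries numbered 1 and 22.0% and 20.5% in those numbered 3.

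Some chemokines differed between replicate numbers, whose meaning the labels do not give. Ccl6 and Pf4 passed the test, with 1.44 ± 0.12 and 1.16 ± 0.10 log2 units more in number 1 than in number 3 (moderated SE) and adjusted p = 0.0228 and 0.0235 (limma F test of the number in a fit with group). These were 2 of the 9 tested members, against 1.6% of all tested genes. Neither passed in limma without trend and robust estimation, or without R-2-HG library 1 or vehicle library 1. The other members did not pass: the difference was 1.62 ± 0.24 for Ccl2 (adjusted p = 0.0643), 0.53 ± 0.08 for Cxcl16 (adjusted p = 0.0771), 0.85 ± 0.16 for Ccl9 (adjusted p = 0.103) and 1.23 ± 0.28 for Ccl7 (adjusted p = 0.145). In the other direction it was -0.77 ± 0.24 for Cxcl2 (adjusted p = 0.209), -0.31 ± 0.10 for Ccl3 (adjusted p = 0.257) and -0.21 ± 0.15 for Ccl4 (adjusted p = 0.381).

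In both groups 6 of the 9 genes (Ccl6, Pf4, Cxcl16, Ccl9, Ccl2 and Ccl7) were highest in number 1 and lowest in number 3, an order held by 6.08% of all tested genes. Ccl3 and Cxcl2 were highest in number 3 and lowest in number 1 in both groups, an order held by 6.17% of all tested genes. All 4 tested constitutive genes took the first order, and the inducible genes were split, with Ccl2 and Ccl7 in the first, Ccl3 and Cxcl2 in the second and Ccl4 in neither. These orders were chosen for counting after the values were seen. The median size of the difference between numbers 1 and 3 was 0.85 log2 units over the 9 genes, against 0.17 over all tested genes.

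**Figure D4:**
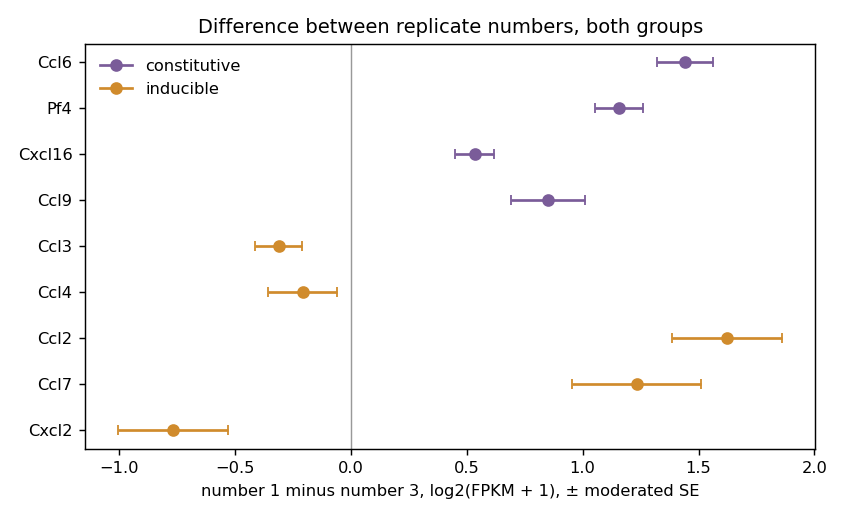
Difference of 9 chemokines between replicate numbers 1 and 3 over both groups, on the log2(FPKM + 1) scale, with the moderated SE (purple, constitutive; orange, inducible). Constitutive genes lie between 0.53 and 1.44, all above 0, and inducible genes between -0.77 and 1.62 on both sides of it.

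Markers of fibroblasts and of antigen presentation also differed by number. Of the 7 general macrophage markers 2 were highest in number 1 and lowest in number 3 in both groups, an order held by 6.08% of all tested genes. Lyz2 was 1 of them, at 23901, 19291 and 16924 FPKM with R-2-HG and 21164, 19264 and 18428 FPKM with vehicle (adjusted p = 0.211, limma F test). The 9 fibroblast and mesothelial markers summed to 71.4, 11.4 and 3.92 FPKM in R-2-HG libraries 1 to 3, against 82.8, 22.3 and 4.06 FPKM in vehicle libraries 1 to 3. All 4 tested ones are fibroblast genes and were highest in number 1 and lowest in number 3 in both groups. The mesothelial markers averaged under 1 FPKM and were not tested. Among them Msln did not share the order, at 0.116, 0.0691 and 0 FPKM with R-2-HG and 0, 0 and 0.342 FPKM with vehicle. Col1a1, a collagen of fibroblasts, had 29.7, 5.35 and 0.965 FPKM with R-2-HG and 31.3, 10.9 and 1.46 FPKM with vehicle. Fibroblasts can make Ccl2 and Ccl7, and the part of these cells in the result was not tested. The 5 markers of small peritoneal macrophages or monocytes, among them the antigen-presenting H2-Aa and H2-Eb1, summed to 438, 347 and 167 FPKM with R-2-HG and 505, 384 and 141 FPKM with vehicle, and their part was not tested. H2-Aa and H2-Eb1 make up nearly all of this sum, and Irf4 of the same list did not share their order, at 0.957, 1.14 and 1.55 FPKM with R-2-HG and 0.912, 1.29 and 1.15 FPKM with vehicle. Platelet markers were near 0: the 9 genes summed to 0.885, 2.19 and 3.73 FPKM with R-2-HG and 1.004, 1.61 and 3.62 FPKM with vehicle, and Gp9, Gp1ba and Gp6 were listed at 0 in every library. Treml1 and Tubb1 carried this sum, while Ppbp, at 0.226 FPKM in R-2-HG library 1 and 0.0584 FPKM in vehicle library 1, was listed at 0 in the other 4 libraries, and no platelet gene was highest in number 3 and lowest in number 1 of both groups. The part of platelets in the level of Pf4 was not tested. B cell markers summed to 6.33, 7.63 and 5.97 FPKM with R-2-HG and 34.0, 10.4 and 5.92 FPKM with vehicle, and neutrophil markers to 47.5, 30.4 and 31.1 FPKM with R-2-HG and 55.3, 40.1 and 29.7 FPKM with vehicle. The T and NK cell sum was 1.75, 0.711 and 0.570 FPKM with R-2-HG and 3.94, 0.853 and 0.610 FPKM with vehicle, the eosinophil sum lay between 3.02 and 4.22 FPKM with Epx at 0, and the mast cell sum reached 2.27 FPKM and the dendritic cell sum 1.003 FPKM at most.

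**Figure D5:**
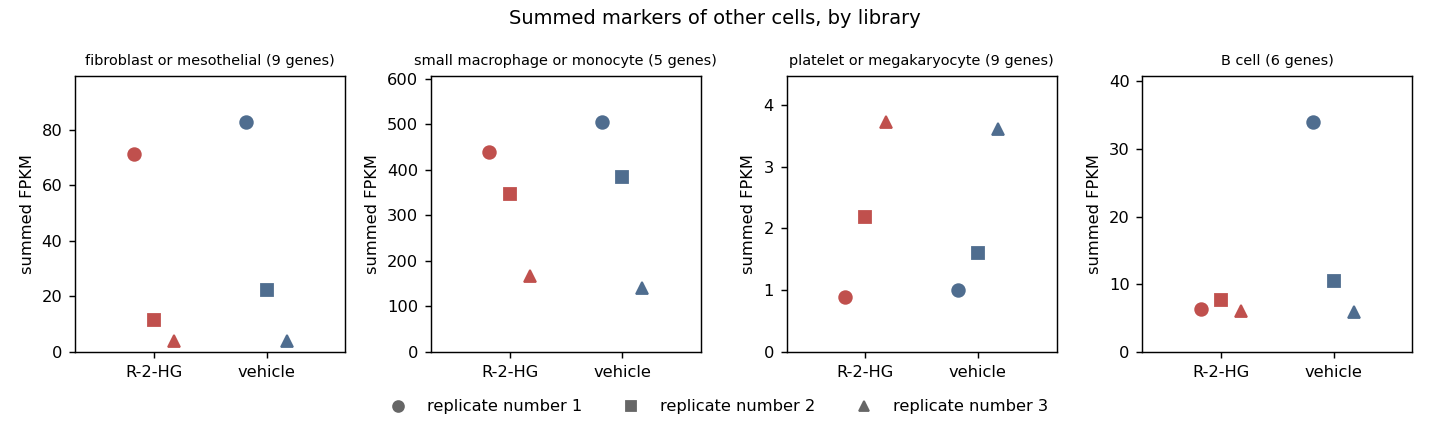
Summed FPKM of 4 marker lists in every library, R-2-HG in red on the left and vehicle in blue on the right, with the shape giving the replicate number. The sum of the fibroblast or mesothelial list is highest in number 1 (71.4 and 82.8 FPKM), and the platelet sum, carried by Treml1 and Tubb1, stays below 4 FPKM.

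Genes around the chemokines also showed no call for R-2-HG: 0 of 35 tested genes in 5 lists passed. The median change was -0.03 over the tested other chemokines, -0.06 over receptors, 0.03 over processing genes, 0.0040 over genes of transcription and messenger decay and 0.20 over inflammatory genes, beside -0.0044 over all genes. Of 28 other chemokines 4 were tested, 2 higher and 2 lower, and 8 were listed at 0 in every library. Ccl8, a monocyte attractant from the cluster of Ccl2 and Ccl7, stood at 28.4 FPKM in R-2-HG library 1, at 6.72 FPKM in library 2 and at a listed 0 in library 3, against 26.5, 10.99 and 2.36 FPKM in vehicle libraries 1 to 3. It was highest in number 1 and lowest in number 3 of both groups (adjusted p = 0.0327, limma F test). Cxcl14 was even, at 12.01, 12.8 and 11.2 FPKM with R-2-HG and 12.2, 11.3 and 14.8 FPKM with vehicle. Ccl5, which attracts T cells, had 3.42, 2.62 and 3.75 FPKM with R-2-HG and 3.80, 3.12 and 0.903 FPKM with vehicle, and Cxcl13, which attracts B cells, averaged 2.36 ± 1.11 FPKM with R-2-HG and 2.28 ± 0.827 FPKM with vehicle (SD, n = 3 each).

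Of 24 receptors 7 were tested, 3 higher and 4 lower. Cxcr4, the receptor for Cxcl12, was most abundant at 91.9 ± 6.11 FPKM with R-2-HG and 89.6 ± 5.73 FPKM with vehicle (SD, n = 3 each). Ccr1, which binds Ccl3, Ccl6 and Ccl9, averaged 23.8 ± 7.12 FPKM with R-2-HG and 27.4 ± 6.09 FPKM with vehicle (SD, n = 3 each). The atypical receptor Ccrl2 averaged 17.1 ± 2.82 FPKM with R-2-HG and 16.5 ± 1.92 FPKM with vehicle (SD, n = 3 each). Ccr2, the receptor for Ccl2 and Ccl7, had a mean of 0.946 FPKM over all libraries and was not tested.

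Among 5 genes that process or bind chemokines 4 were tested, 3 higher and 1 lower. Mmp12, the macrophage elastase that trims chemokines, averaged 357 ± 82.1 FPKM with R-2-HG and 352 ± 64.1 FPKM with vehicle (SD, n = 3 each), and Adam10, which sheds Cxcl16, 54.2 ± 10.3 FPKM with R-2-HG and 51.8 ± 7.57 FPKM with vehicle (SD, n = 3 each). Srgn, the proteoglycan of secretory granules, had 33.8, 30.6 and 16.9 FPKM with R-2-HG, all below the 35.6, 34.5 and 35.7 FPKM with vehicle, and was not called (change -0.43 ± 0.23, moderated SE). Of the 16 genes of transcription and messenger decay 8 were higher and 8 lower: Atf3, a stress-induced factor, averaged 213 ± 59.1 FPKM with R-2-HG and 230 ± 29.7 FPKM with vehicle, and Zfp36, which destabilises cytokine messengers, 64.2 ± 1.40 FPKM with R-2-HG and 63.6 ± 1.68 FPKM with vehicle (SD, n = 3 each). Of 5 inducible inflammatory genes 4 were tested, all with a positive change, and none was called. Tnf had 2.61, 2.50 and 5.07 FPKM with R-2-HG and 2.45, 2.65 and 2.81 FPKM with vehicle, and Il1b 0.364, 1.15 and 2.64 FPKM with R-2-HG and 1.18, 0.713 and 0.691 FPKM with vehicle. In both the highest value is R-2-HG library 3, and the groups overlap. Il1a was also highest in R-2-HG library 3, at 13.6 FPKM. Ptgs2 went the other way, highest in vehicle library 1 at 2.85 FPKM and at 1.18 FPKM in R-2-HG library 3.

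The genes most like the members were sought by the smallest root mean square difference to the mean profile of a class over the 6 libraries, among 3412 genes of at least 10 FPKM. For the constitutive class, with the untested Ccl24 included, they were Mrc1 (0.053 log2 units), the mannose receptor of macrophages, Pld4 (0.055) and H6pd (0.077). Mrc1 had 26.2, 20.9 and 13.5 FPKM in R-2-HG libraries 1 to 3, against 27.1, 21.6 and 14.1 FPKM in vehicle libraries 1 to 3. It shares the order by number of Ccl6 and Pf4, which the search itself selects for. The mean profile of the inducible class joins genes of opposite order by number and describes no single member, and the genes nearest to it were Psmc3 (0.041), Etfa (0.061) and Fam96a (0.066).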

How the data were processed

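Per the labels, total RNA of 6 libraries was extracted, DNase-treated and sequenced with Illumina protocols. The authors deposited FPKM of 34745 genes, 1 column per library, and these were used as deposited; Bowtie 0.12.2, Cuffdiff, mm8 and mm10 are named, with no role or order, per the submitters' processing notes. The sources do not give the annotation or strand handling, and GENCODE M21 and RefSeq tables need not match them. The limma package (3.58.1, R 4.3.3) was run on log2(FPKM + 1) of the 9701 genes averaging 1 FPKM or more (eBayes with trend and robust estimation, two-sided, Benjamini-Hochberg over all tested genes, threshold 0.05). With 3 against 3 the smallest p of an exact permutation test is 0.1. Replicate number was tested with a limma F test in a fit with group. Tests were checked on simulated data. Tables were handled with Python 3.11.15 and pandas 2.3.3.

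Depth was estimated from the steps of low FPKM values in single-transcript genes, of which 95.1% to 96% lay within 0.1 of a whole fragment; intervals and fragments cover counting error only. No 2 libraries held identical values.

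The members and lists were chosen with earlier results of these data known. All 10 members are named; of each list, every gene called and otherwise genes from the 4 with the highest mean FPKM; and the 3 genes most like each class. A receptor and a marker from these lists are not reported here. Col1a1, Zmynd15, Ccr2, the cell type markers named and the genes named for calls in single fits were chosen after values were seen.

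Across genes, deviations from the mean of the group correlated between libraries of the same number at 0.538, 0.375 and 0.361, against -0.468 to 0.0461 for other pairs. Deviations sum to 0 within a group, so positive values for the same number push those of other pairs down. Libraries of the same number thus deviate together, a pairing read from the same data that the fits with number use. The replicate block was fitted as an alternative. Other alternatives were the pseudocount, the filter, the scaling, the limma settings and leaving out libraries.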

Additional observations from a re-analysis of the deposited data

How the results depend on the processing

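No member was called for R-2-HG under any of the 14 alternatives, and over 126 member changes 18 turned sign. Genes called over the whole table ranged from 0 to 1 as single libraries were left out (Ube2l3 without R-2-HG library 1, C5ar1 without R-2-HG library 3, both named after their values were seen). With the replicate block 0 genes and 0 members were called, with 329 genes at an unadjusted p under 0.05 against 140 without the block, and the block changed no call.

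Changes of Ccl3, Ccl4, Ccl9 and Cxcl2 kept their sign in all 14, Ccl3 between 0.07 and 0.29, Ccl4 between -0.24 and -0.0077, Ccl9 between -0.60 and -0.03 and Cxcl2 between 0.09 and 0.67. Leaving out a single library makes the replicate numbers unequal between the groups. Doing so moved the change of Ccl6 between -0.55 and 0.28, Pf4 between -0.32 and 0.31 and Cxcl16 between -0.12 and 0.17. Ccl2 moved between -0.41 and 0.61 and Ccl7 between -0.58 and 0.26. Pf4 turned to 9.6e-05 on the TPM scale, 0.0028 after quantile normalization and 0.0081 without both libraries numbered 1. Without both libraries numbered 3, Cxcl16 was at -0.016 and Ccl2 at -0.16; without both numbered 1, Ccl7 was at 0.11. The causes were not tested.

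Between 0 and 2 of the 9 members had groups without overlap in either direction as single libraries were left out, against 11% to 16.7% of all tested genes. There were 2 (Ccl3 and Cxcl2, higher) without both libraries numbered 1, against 13.3% of all genes higher, and 1 (Ccl9, lower) without both numbered 3, against 12.3% lower. The difference of the class ratio lay between -0.14 and 0.53 as single libraries were left out, was 0.26 and 0.20 without both libraries numbered 1 and 3, and was 0.10 for means of log2 values.

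Genes differing between numbers came to 51, and members to 0, in limma without trend and robust estimation. Without single libraries they ranged from 19 to 1334 genes and from 0 to 5 members; Ccl6, Pf4, Cxcl16, Ccl9 and Ccl2 passed without library 3 of either group.

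With 3 libraries per group, small changes are not detectable, and genes near 1 FPKM, such as Ccl2, Ccl7 and Cxcl2, rest on few fragments.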
